A study of Mus musculus with 14 samples.

Results

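The S100 genes encode small calcium-binding proteins, and 8 of them are described here in the left ventricle of mice with and without heart failure with preserved ejection fraction (HFpEF). They were taken by gene symbol from a table of 24054 genes and are S100a1, S100a4, S100a6, S100a8, S100a9, S100a10, S100a11 and S100a13. The family was chosen by the measured values of S100a10, whose counts were higher in HFpEF and lower with a hairpin against FoxO1, so its values in those comparisons are given as a description, without a test. Of the 8 genes, 6 passed the filter on low counts and were tested among 13588 genes, and S100a8 and S100a9 did not pass.

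Messenger RNA was sequenced in 14 libraries of left ventricle from mice whose strain the labels write as C56Bl6. The 5 libraries labelled HFpEF-FoxO1-sh came from mice given 6 weeks of High-Fat diet with L-NAME, an inhibitor of nitric oxide synthases, and 4 weeks of an adeno-associated virus (AAV) carrying AAV-FoxO1-sh, a hairpin against the transcription factor FoxO1. The 4 HFpEF-scr libraries came from mice given the same diet and drug for 6 weeks and, for 4 weeks, AAV-scramble-sh, a hairpin of scrambled sequence. The 5 control libraries came from mice on standard diet, labelled 10 weeks, with no AAV named, so that in any comparison with control the effects of virus, diet and drug cannot be told apart. The labels give neither the promoter that drives the hairpin nor whether the replicates come from different animals, and p-values therefore reflect only how far these libraries scatter.

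S100 proteins form pairs that change shape when calcium enters their EF-hand loops and then grip a partner protein. S100a10 has lost calcium binding and is held in a complex with annexin A2 at membranes, where it can bring plasminogen and its activators together. S100a1 is the family member of heart muscle cells and acts on the calcium pump and release channel of the sarcoplasmic reticulum, whereas S100a8 and S100a9 form a pair stored in neutrophils and monocytes and released in inflammation. S100a4, S100a6 and S100a11 are found in fibroblasts and other non-muscle cells, where S100a4 binds non-muscle myosin.

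All 8 genes lie on chromosome 3 (GRCm38, GENCODE vM21). S100a1 spans chr3:90511034-90514392 on the minus strand and S100a13 spans chr3:90514435-90524581 on the plus strand, so the pair is transcribed away from a shared gap of 42 bases. S100a4 (chr3:90603771-90606045), S100a6 (chr3:90612882-90624181) and S100a8 (chr3:90668978-90670035) follow on the plus strand, and S100a9 (chr3:90692632-90695721) lies on the minus strand. S100a11 (chr3:93520488-93526287) and S100a10 (chr3:93555080-93564643) are 28.8 kb apart and 2820 kb from the others. Of the exon bases of S100a4, 60.6% are shared in this annotation with the gene model Gm42674. Whether the annotation used for counting held that model is not given, so any effect on the counts of S100a4 is not known.

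The bases before the start of transcription are shown for the S100a1 and S100a13 pair, which differ widely in level despite the shared gap, for S100a6 and S100a11, the members besides S100a10 that passed the test in 1 comparison, and for S100a9, the other member with a motif match. The sequences are those of RefSeq on GRCm38.p6, which held a window for 7 of the 8 genes, at most 250 bases long and shortened here where the annotation has transcribed bases. Capitals mark matches to the motifs searched on both strands.
gap between S100a1 and S100a13, chr3:90514393-90514434, plus strand: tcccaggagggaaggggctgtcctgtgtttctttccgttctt
S100a6, chr3:90612644-90612881, plus strand: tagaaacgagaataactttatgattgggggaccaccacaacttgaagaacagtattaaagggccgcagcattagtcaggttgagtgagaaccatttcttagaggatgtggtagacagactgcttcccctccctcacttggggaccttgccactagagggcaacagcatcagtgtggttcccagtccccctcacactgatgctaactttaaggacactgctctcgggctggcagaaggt
S100a11, chr3:93520246-93520487, plus strand: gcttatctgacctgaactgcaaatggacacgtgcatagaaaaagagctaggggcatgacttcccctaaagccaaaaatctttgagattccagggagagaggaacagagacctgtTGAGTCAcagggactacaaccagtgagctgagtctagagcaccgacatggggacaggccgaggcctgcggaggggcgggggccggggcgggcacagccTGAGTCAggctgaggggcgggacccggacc
S100a9, chr3:90695722-90695971, minus strand: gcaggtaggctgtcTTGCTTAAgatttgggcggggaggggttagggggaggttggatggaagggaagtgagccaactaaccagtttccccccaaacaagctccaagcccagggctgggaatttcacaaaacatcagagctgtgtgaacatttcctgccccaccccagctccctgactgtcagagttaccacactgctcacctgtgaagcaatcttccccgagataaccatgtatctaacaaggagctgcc
The letters searched were GTAAACA or TGTTTAC for FoxO factors, TGACTCA or TGAGTCA for AP-1, the factor made of Fos and Jun proteins, and TTGCNNAA or TTNNGCAA for C/EBP. The window of S100a11 held the AP-1 letters at 136 and at 38 bases before the start. Among 32851 windows of the same length, 4.46% held them and 0.167% held them in at least 2 places. The window of S100a9 held the C/EBP letters TTGCTTAA at 236 bases before the start, and 9.56% of all windows held a match to that motif. None of the 7 windows held the FoxO letters, which 3.17% of all windows held. S100a10 was the gene without a window, so the bases before its start were not searched for any motif.

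Library totals ran from 13174118 to 21247155 counts, and 13 heart muscle markers summed to between 115000 and 136000 CPM (counts per 1000000 after scaling) in each library. Foxo1, the gene aimed at, had 41.5, 46.0, 39.3, 43.8 and 41.4 CPM in the libraries 1 to 5 labelled HFpEF-FoxO1-sh. It had 44.8, 48.3, 41.0 and 40.1 CPM in HFpEF-scr 1 to 4, and 44.2, 42.2, 42.4, 47.0 and 44.4 CPM in control 1 to 5. The groups overlapped, and the log2 fold change of the libraries labelled HFpEF-FoxO1-sh over HFpEF-scr was -0.04 ± 0.06 (SE), with an adjusted p of 0.78 in edgeR's quasi-likelihood test. Foxo1 messenger RNA of whole ventricle thus did not set the libraries labelled HFpEF-FoxO1-sh apart, and each direction given for them is that of libraries so labelled. HFpEF-scr 1 stood apart in red cell markers, whose summed level was 6080 CPM there and between 541 and 1700 CPM in the other 13 libraries. It was also the highest in endothelial markers, with a summed level of 2790 CPM against 1980 to 2240 CPM in the other 13, and in pericyte and smooth muscle markers, with 4040 CPM against 3620 to 3880 CPM.

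S100a1 was by far the most abundant of the 8 per length of transcript. Divided by the length of its exons, its level averaged 733 ± 23.9 CPM per kb in the libraries labelled HFpEF-FoxO1-sh, 709 ± 28.9 in HFpEF-scr and 771 ± 43 in control (SD, n = 5, 4 and 5). Over all 14 libraries S100a11 came next with 36.5 ± 5.02 CPM per kb, followed by S100a10 with 25.4 ± 4.41, S100a13 with 24 ± 2.15 and S100a6 with 23.6 ± 3.51. S100a10, S100a13 and S100a6 did not differ beyond their spread, and the lowest library of S100a11 (29.5 CPM per kb) lay below the highest of S100a10 (34.8) and S100a6 (31.5) but above that of S100a13 (27.7). S100a4 followed with 4.76 ± 1.23 CPM per kb, and S100a9 with 0.885 ± 1.11 and S100a8 with 0.448 ± 0.752 came last with overlapping values. S100a13 thus stood at a small share of the level of S100a1, from which it is parted by the 42 bases shown above.

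**Figure D1:**
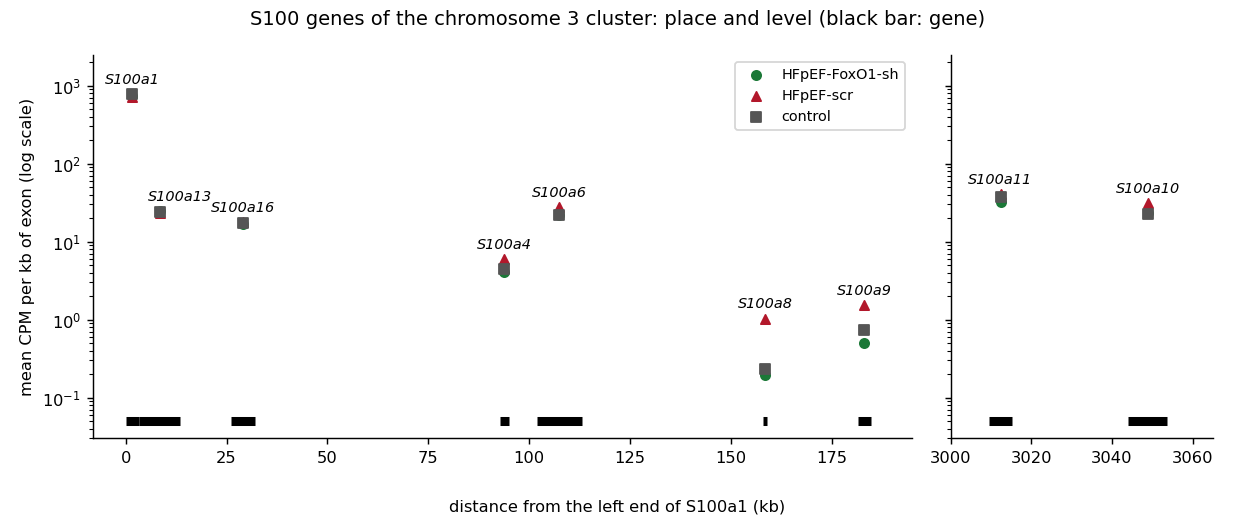
Place of the S100 genes of chromosome 3, as the distance in kb from the left end of S100a1, against their mean level in CPM per kb of exon on a log scale. Points stand for group means, with S100a16 added as a further family member, and the horizontal axis is broken between the 2 panels, which have the same scale. S100a1 lies at the top, near 740 CPM per kb, and S100a8 and S100a9 lie lowest.

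S100a10, the partner of annexin A2, was the only member of the 8 whose HFpEF-scr libraries all lay above every library of both other groups. It had 16.4, 18.9, 18.4, 18.7 and 20.5 CPM in the libraries 1 to 5 labelled HFpEF-FoxO1-sh, 25.3, 22.8, 24.4 and 27.9 CPM in HFpEF-scr 1 to 4, and 20.9, 19.7, 17.0, 17.7 and 16.4 CPM in control 1 to 5. The lowest HFpEF-scr library, number 2, was above the highest control, and the libraries labelled HFpEF-FoxO1-sh covered nearly the same range as control. Of all genes tested, 4.29% were higher in HFpEF-scr than in control without overlap. Without overlap, 4.23% were lower in HFpEF-FoxO1-sh than in HFpEF-scr. The share of genes that did both was not counted. The means were 18.6 ± 1.45, 25.1 ± 2.15 and 18.3 ± 1.89 CPM (SD) in HFpEF-FoxO1-sh, HFpEF-scr and control. HFpEF-scr over control gave a log2 fold change of 0.45 ± 0.08 (SE), a level 36.9% higher. That of the libraries labelled HFpEF-FoxO1-sh over HFpEF-scr was -0.43 ± 0.08, a level 26% lower. These 2 values share the HFpEF-scr libraries and chose the gene, so nothing further is read from them. With single libraries left out the first stayed between 0.40 and 0.51 and the second between -0.48 and -0.38. With HFpEF-scr 1 and 2 left out together, a choice made after seeing the data, they were 0.51 and -0.49. As every HFpEF-scr library lay above all others, leaving libraries out could not turn these directions, and these fits are a description only.

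The difference of S100a10 between the libraries labelled HFpEF-FoxO1-sh and control is made up of the same 2 values and is likewise a description. Its log2 fold change was 0.02 ± 0.08 (SE), with the libraries labelled HFpEF-FoxO1-sh between 16.4 and 20.5 CPM and the controls between 16.4 and 20.9 CPM.

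**Figure D2:**
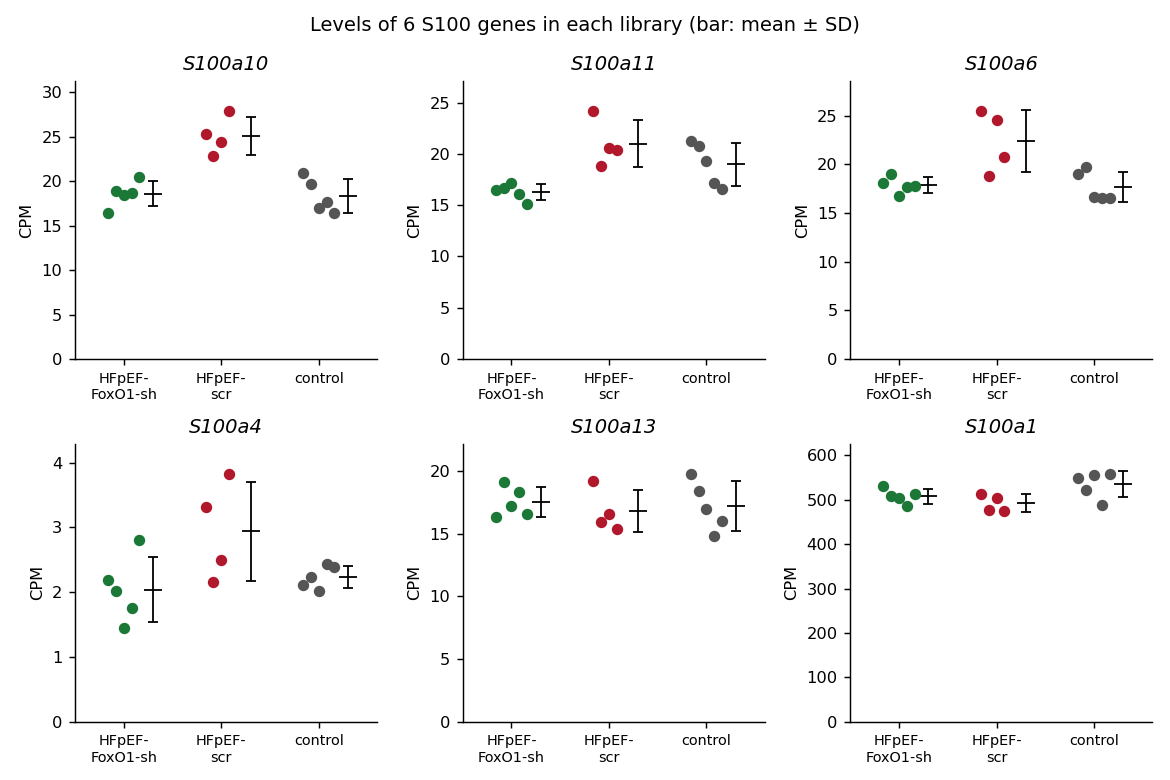
Levels in CPM of the 6 S100 genes that passed the filter, 1 point per library, in HFpEF-FoxO1-sh (n = 5), HFpEF-scr (n = 4) and control (n = 5), with the mean and SD beside the points. The 4 HFpEF-scr points of S100a10 lie between 22.8 and 27.9 CPM, above all others of that gene, while S100a13 and S100a1 overlap in all 3 groups.

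S100a11, the close neighbour of S100a10 and a calcium-dependent partner of annexin A1, was lower in the libraries labelled HFpEF-FoxO1-sh than in HFpEF-scr. It had 16.5, 16.7, 17.2, 16.1 and 15.1 CPM in the libraries 1 to 5 labelled HFpEF-FoxO1-sh, 24.2, 18.8, 20.6 and 20.4 CPM in HFpEF-scr 1 to 4, and 21.3, 20.8, 19.3, 17.2 and 16.6 CPM in control 1 to 5. The libraries labelled HFpEF-FoxO1-sh lay below every HFpEF-scr library, and HFpEF-scr 1 was the highest of all. Over HFpEF-scr this was a log2 fold change of -0.36 ± 0.09 (adjusted p = 0.0335), a level 22.3% lower. Of the 5 tested members besides S100a10 it was the only 1 called in this comparison, in which 3.58% of all genes were called and 2.26% were called lower; 4.23% of all genes were lower without overlap. The call was lost in 7 of the 9 fits that left out 1 library, with an adjusted p of up to 0.101 without HFpEF-scr 1, the library with the highest red cell and endothelial markers.

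Against control, S100a11 did not pass the test in either HFpEF group. Its log2 fold change was -0.23 ± 0.08 for the libraries labelled HFpEF-FoxO1-sh (adjusted p = 0.0859) and 0.14 ± 0.09 for HFpEF-scr (adjusted p = 0.36), with overlap in both. The means were 16.3 ± 0.797 CPM in the libraries labelled HFpEF-FoxO1-sh, 21 ± 2.3 CPM in HFpEF-scr and 19 ± 2.09 CPM in control (SD). The control mean of S100a11 lay between those of the HFpEF groups, whereas for S100a10 it lay beside that of HFpEF-FoxO1-sh. No gene other than S100a10, S100a11 and Tchh was tested within 250 kb of the pair, and Tchh, a gene of hair follicles, was not called in any of the 3 comparisons.

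S100a6, the partner of the ubiquitin ligase adaptor Cacybp, was higher in HFpEF-scr than in control. It had 18.1, 19.0, 16.7, 17.7 and 17.8 CPM in the libraries 1 to 5 labelled HFpEF-FoxO1-sh, 25.5, 18.8, 24.6 and 20.8 CPM in HFpEF-scr 1 to 4, and 19.0, 19.7, 16.6, 16.5 and 16.5 CPM in control 1 to 5. HFpEF-scr 1, which also had the highest endothelial sum, and HFpEF-scr 3 were the highest, and HFpEF-scr 2 fell within the range of both other groups. HFpEF-scr over control gave a log2 fold change of 0.34 ± 0.09 (adjusted p = 0.0299), a level 26.7% higher. It was the only 1 called of the 5 tested members besides S100a10, where 7.37% of all genes were called and 3.66% were called higher. The call was lost in 5 of 9 fits without 1 library, with an adjusted p of up to 0.0816 without HFpEF-scr 3, and in the fit of these groups alone (adjusted p = 0.0771).

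For S100a6, HFpEF-FoxO1-sh over HFpEF-scr gave a log2 fold change of -0.33 ± 0.09, which missed the threshold (adjusted p = 0.0522). It was called without HFpEF-scr 2 (adjusted p = 0.0238), without HFpEF-scr 4 (0.0421), with at least 10 counts in every library (0.049) and in DESeq2 (0.0187). Over control it was 0.01 ± 0.08 (adjusted p = 0.937). Of the 5 tested members besides S100a10, none was called in that last comparison at an adjusted p under 0.05, where 13.0% of all genes were called; S100a11 was the only 1 with an unadjusted p under 0.05 (0.0146), and neither DESeq2 nor limma voom called any.

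S100a4, the binder of non-muscle myosin, varied most from library to library among the tested members in both HFpEF groups, with coefficients of variation of 24.8% in HFpEF-FoxO1-sh and 25.9% in HFpEF-scr, against 7.76% in control. It was also the tested member with the fewest counts, so counting error is part of this spread, and its share was not tested. Single libraries had 21 to 42 counts in HFpEF-FoxO1-sh, 31 to 54 in HFpEF-scr and 30 to 45 in control. It had 2.19, 2.02, 1.45, 1.76 and 2.80 CPM in the libraries 1 to 5 labelled HFpEF-FoxO1-sh, 3.31, 2.15, 2.50 and 3.83 CPM in HFpEF-scr 1 to 4, and 2.11, 2.23, 2.02, 2.43 and 2.39 CPM in control 1 to 5. HFpEF-scr 1 and 4 were the highest, and HFpEF-scr 2 lay inside the control range. The log2 fold change was 0.40 ± 0.20 for HFpEF-scr over control (adjusted p = 0.235) and -0.52 ± 0.20 for the libraries labelled HFpEF-FoxO1-sh over HFpEF-scr (adjusted p = 0.152). The 95% interval of HFpEF-FoxO1-sh over HFpEF-scr ran from -48% to -6.4%.

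S100a1, the calcium regulator of heart muscle, and S100a13, which helps to export growth factors that lack a signal peptide, passed the test in none of the 3 comparisons. S100a1 had 532, 509, 503, 486 and 512 CPM in the libraries 1 to 5 labelled HFpEF-FoxO1-sh, 514, 476, 504 and 474 CPM in HFpEF-scr 1 to 4, and 550, 523, 555, 488 and 559 CPM in control 1 to 5. All 3 groups overlapped, and 4 of the 5 controls lay above every HFpEF-scr library. HFpEF-scr over control gave a log2 fold change of -0.12 ± 0.05 (adjusted p = 0.116), and it was called without control 4, the lowest control (adjusted p = 0.0411). Its 95% interval ran from -14% to -1.72%. The values were 0.05 ± 0.05 for the libraries labelled HFpEF-FoxO1-sh over HFpEF-scr (adjusted p = 0.611) and -0.07 ± 0.04 over control (adjusted p = 0.284).

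S100a13 had between 16.3 and 19.1 CPM in the libraries labelled HFpEF-FoxO1-sh, between 15.4 and 19.2 CPM in HFpEF-scr and between 14.8 and 19.8 CPM in control. The medians were 17.2 CPM in HFpEF-FoxO1-sh, 16.3 CPM in HFpEF-scr and 17 CPM in control. The groups covered the same range. Its log2 fold change was 0.06 ± 0.09 for the libraries labelled HFpEF-FoxO1-sh over HFpEF-scr, -0.04 ± 0.09 for HFpEF-scr over control and 0.02 ± 0.08 for HFpEF-FoxO1-sh over control (adjusted p = 0.767, 0.841 and 0.902). The 95% interval of HFpEF-scr over control ran from -14.7% to 11.1%, below the 26.7% of S100a6.

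**Figure D3:**
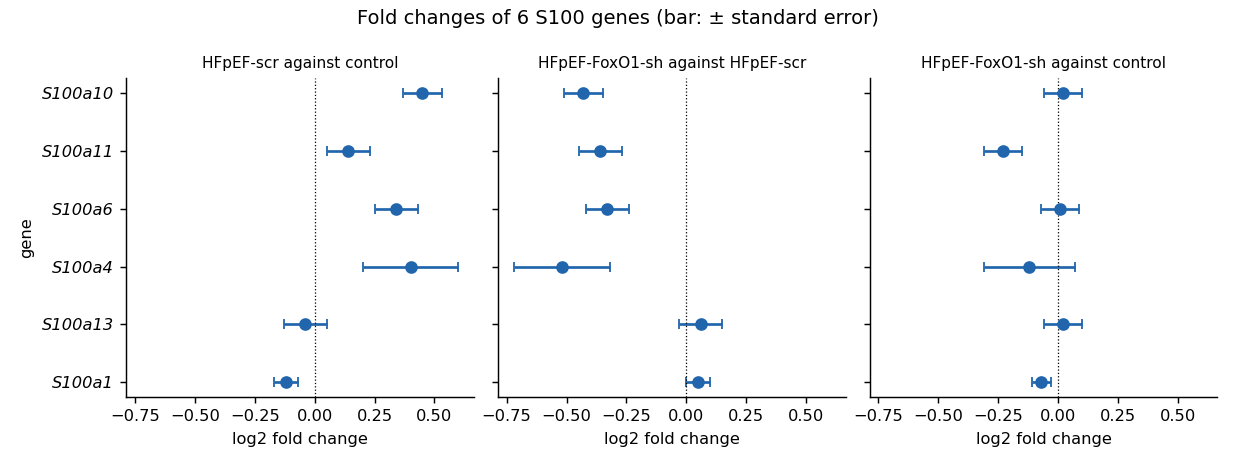
Log2 fold changes of the 6 tested S100 genes in HFpEF-scr against control, HFpEF-FoxO1-sh against HFpEF-scr and HFpEF-FoxO1-sh against control, with bars of 1 standard error to each side. S100a10 and S100a6 lie at 0.45 and 0.34 in the first panel, at -0.43 and -0.33 in the second, which shares the HFpEF-scr libraries, and at 0.02 and 0.01 in the third.

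S100a8 and S100a9, the paired alarmins of neutrophils and monocytes, were near the floor of detection in all but 1 library. S100a8 had 2, 0, 0, 3 and 2 counts in the libraries 1 to 5 labelled HFpEF-FoxO1-sh, 4, 21, 1 and 3 counts in HFpEF-scr 1 to 4, and 2, 1, 4, 1 and 1 counts in control 1 to 5. S100a9 had 0, 2, 3, 5 and 9 counts in the libraries 1 to 5 labelled HFpEF-FoxO1-sh, 6, 34, 5 and 2 counts in HFpEF-scr 1 to 4, and 1, 9, 4, 8 and 6 counts in control 1 to 5. HFpEF-scr 2 alone held 46.7% of the 45 counts of S100a8 and 36.2% of the 94 counts of S100a9. In the other 13 libraries S100a8 had at most 4 counts and S100a9 at most 9. A count of 0 allows up to 3 counts, which is 0.224 CPM for S100a8 in the library HFpEF-FoxO1-sh 2 and 0.199 CPM for S100a9 in HFpEF-FoxO1-sh 1, and these limits cover counting error only.

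The means of S100a8 were 0.0955 ± 0.0928 CPM in the libraries labelled HFpEF-FoxO1-sh, 0.503 ± 0.641 CPM in HFpEF-scr and 0.113 ± 0.0835 CPM in control (SD). Without HFpEF-scr 2 the mean of HFpEF-scr was 0.186 CPM. Those of S100a9 were 0.262 ± 0.227, 0.81 ± 1.04 and 0.385 ± 0.242 CPM in HFpEF-FoxO1-sh, HFpEF-scr and control, with 0.295 CPM in HFpEF-scr without that library. Two-sided exact permutation tests of CPM gave p = 0.0635 for S100a8 and 0.278 for S100a9 in HFpEF-FoxO1-sh over HFpEF-scr, and 0.103 and 0.54 in HFpEF-scr over control. In HFpEF-FoxO1-sh over control the exact p was 0.714 for S100a8 and 0.421 for S100a9. After adjustment over the 6 tests no p was below 0.309, and the smallest p that these group sizes allow is 0.00794 with HFpEF-scr and 0.00397 without it.

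The summed level of neutrophil markers was highest in HFpEF-scr 2 and nearly as high in HFpEF-scr 4, which had few counts of S100a8 and S100a9. Over the 23 markers in the table it was between 10.1 and 12.6 CPM in the libraries labelled HFpEF-FoxO1-sh, 13.7, 18.1, 11.7 and 17.7 CPM in HFpEF-scr 1 to 4, and between 11.2 and 14.3 CPM in control. Only 5 of the markers were tested, and Cxcl2 alone was called. It was higher in HFpEF-scr over control and lower in HFpEF-FoxO1-sh over HFpEF-scr, calls that share the HFpEF-scr libraries. Over all genes, 3.66% were called higher and 2.26% lower in these comparisons. Cxcl2 had 0 to 5 counts in HFpEF-FoxO1-sh, 1 to 44 in HFpEF-scr and 1 to 12 in control. Csf3r, the receptor for granulocyte colony-stimulating factor, had 51 counts in HFpEF-scr 2, and Retnlg, a product of mature neutrophils, had 6 counts there and at most 3 elsewhere. Other markers were highest elsewhere. Slpi had 19 counts, Lcn2 50, Padi4 12 and Trem1 5 in HFpEF-scr 4, and there Csf3r had 41 and Retnlg 0. Cxcr2 had 107 counts in HFpEF-scr 3 and 80 in HFpEF-scr 2. Mpo, Elane, Ctsg, Stfa2 and Stfa3, which include granule enzymes of neutrophils, were at 0 in all 14 libraries, and 11 of the 23 markers were at 0 in HFpEF-scr 2. The part of these cells in the counts of S100a8 and S100a9 was not tested.

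**Figure D4:**
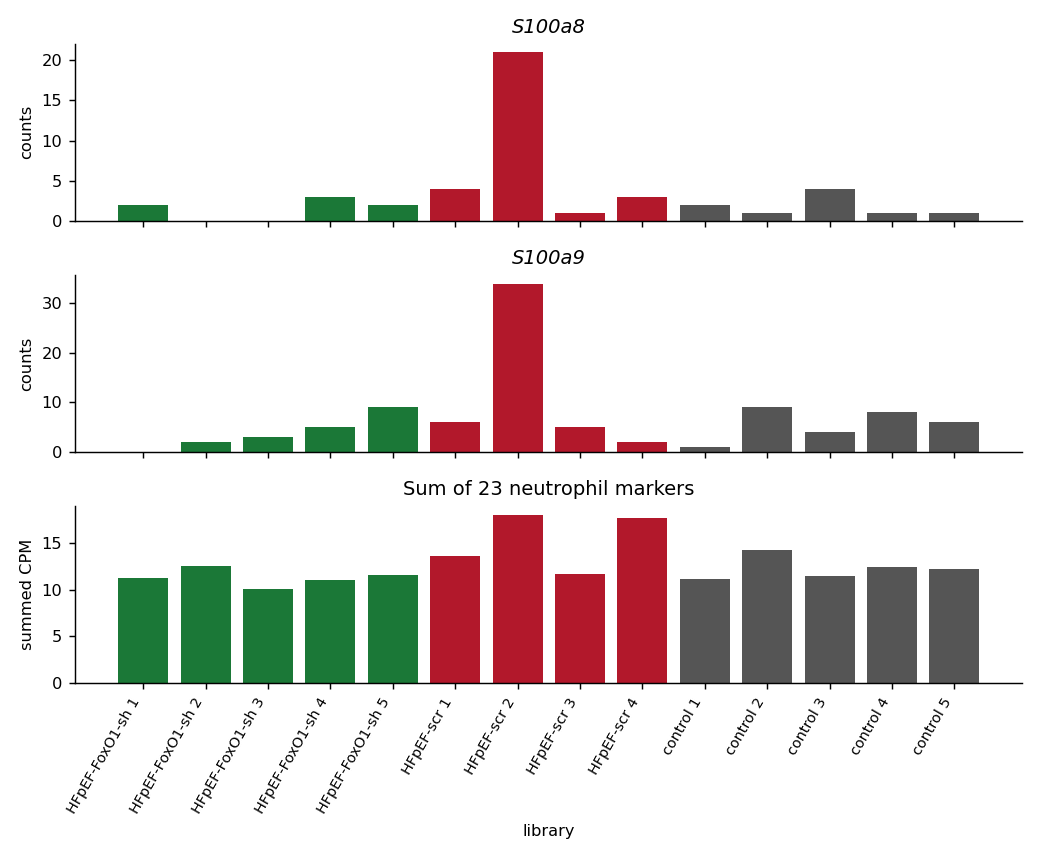
Counts of S100a8 and S100a9 and the summed CPM of 23 neutrophil markers in each of the 14 libraries, as bars from 0, with HFpEF-FoxO1-sh at the left, then HFpEF-scr and control. HFpEF-scr 2 has 21 and 34 counts of the 2 genes, and its marker sum of 18.1 CPM is close to the 17.7 CPM of HFpEF-scr 4.

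Of the receptors and partners of S100a8 and S100a9, 12 of 13 were tested. In HFpEF-FoxO1-sh over HFpEF-scr, 2 of the 12 were lower and none higher, where 2.26% of all genes were called lower. Tlr4, their toll-like receptor, had a log2 fold change of -0.56 ± 0.14 (adjusted p = 0.0377), and Ncf1, a subunit of the phagocyte NADPH oxidase, one of -0.62 ± 0.15 (adjusted p = 0.0299). In HFpEF-scr over control Cd36, a fatty acid transporter that binds the pair, rose by 0.49 ± 0.05 (adjusted p = 2.9e-05) and Cyba, an oxidase subunit, fell by 0.38 ± 0.10 (adjusted p = 0.0347). Cd36 was also higher and Cyba lower in the libraries labelled HFpEF-FoxO1-sh over control (0.48 ± 0.04 and -0.37 ± 0.10). No other gene of the 12 was called over control. Over all genes, 7.37% were called in HFpEF-scr over control and 13.0% in HFpEF-FoxO1-sh over control. In the fits without 1 library, Tlr4 lost its call in 7 of 9 and Ncf1 in 6 of 9, and Cyba lost that of HFpEF-scr over control in 6 of 9.

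Anxa2, the annexin that binds S100a10, was higher in HFpEF-scr than in control and lower in the libraries labelled HFpEF-FoxO1-sh than in HFpEF-scr. It had 35.0, 35.0, 38.1, 34.6 and 32.1 CPM in the libraries 1 to 5 labelled HFpEF-FoxO1-sh, 63.5, 41.8, 50.8 and 45.2 CPM in HFpEF-scr 1 to 4, and 42.2, 43.5, 37.2, 33.1 and 38.1 CPM in control 1 to 5. HFpEF-scr 1, again, was the highest library, and HFpEF-scr 2 overlapped with control but not with HFpEF-FoxO1-sh. HFpEF-FoxO1-sh over HFpEF-scr gave a log2 fold change of -0.53 ± 0.10 (adjusted p = 0.0135), and HFpEF-scr over control gave 0.37 ± 0.10 (adjusted p = 0.0379). Both values share the HFpEF-scr libraries and are not separate findings, which holds also for Plat, Anxa1 and Ppfibp1 below. The call over control was lost in 5 of 9 fits without 1 library, with an adjusted p of up to 0.0941 without HFpEF-scr 1. Over control, HFpEF-FoxO1-sh gave -0.15 ± 0.10 (adjusted p = 0.347).

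Plat, the tissue plasminogen activator whose substrate S100a10 can hold, had 17.1, 18.4, 17.8, 14.7 and 16.1 CPM in the libraries 1 to 5 labelled HFpEF-FoxO1-sh, 27.5, 26.5, 19.7 and 19.0 CPM in HFpEF-scr 1 to 4, and 19.6, 18.8, 18.0, 15.9 and 16.2 CPM in control 1 to 5. HFpEF-scr 1 and 2 stood above all others. Plat gave a log2 fold change of -0.46 ± 0.11 over HFpEF-scr for the libraries labelled HFpEF-FoxO1-sh (adjusted p = 0.034) and 0.39 ± 0.11 for HFpEF-scr over control (adjusted p = 0.0451). Each call was lost in 6 of 9 fits without 1 library, with an adjusted p of up to 0.102 over HFpEF-scr (without HFpEF-scr 1) and of up to 0.14 over control (without HFpEF-scr 2). Over the list of S100a10 partners and the plasminogen system, with 11 of 17 genes tested, 2 were lower and none higher in HFpEF-FoxO1-sh over HFpEF-scr, and 2 were higher and none lower in HFpEF-scr over control. Of all genes, 2.26% were called lower in HFpEF-FoxO1-sh over HFpEF-scr and 3.66% higher in HFpEF-scr over control. The list's median log2 fold change was -0.01 and 0.04 in these comparisons, against 0 over all genes tested in both. Kcnk3, a potassium channel that S100a10 carries to the membrane, was called lower in HFpEF-FoxO1-sh over control (-0.22 ± 0.05, adjusted p = 0.0151). No other gene of the 11 was called there, where 13.0% of all genes were called in either direction.

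Of 12 annexins 10 were tested. Anxa1, the partner of S100a11, had 12.9, 12.2, 14.1, 12.4 and 11.3 CPM in the libraries 1 to 5 labelled HFpEF-FoxO1-sh, 16.6, 19.3, 15.0 and 17.3 CPM in HFpEF-scr 1 to 4, and 11.8, 13.1, 9.72, 12.0 and 11.8 CPM in control 1 to 5. Every HFpEF-scr library lay above all others, as for S100a10. Without overlap, 4.29% of all genes tested were higher in HFpEF-scr than in control, and 4.23% were lower in HFpEF-FoxO1-sh than in HFpEF-scr. Anxa1 gave a log2 fold change of -0.44 ± 0.09 for the libraries labelled HFpEF-FoxO1-sh over HFpEF-scr (adjusted p = 0.0201, and 0.0557 without HFpEF-scr 2) and 0.54 ± 0.09 for HFpEF-scr over control (adjusted p = 0.00274). Anxa5, a binder of phosphatidylserine, was lower in the libraries labelled HFpEF-FoxO1-sh over both HFpEF-scr (-0.32 ± 0.04, adjusted p = 0.000941) and control (-0.19 ± 0.04, adjusted p = 0.00608). With Anxa1 and Anxa2 that made 3 annexins lower over HFpEF-scr and none higher, where 2.26% of all genes were called lower, and the list's median was -0.05.

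**Figure D5:**
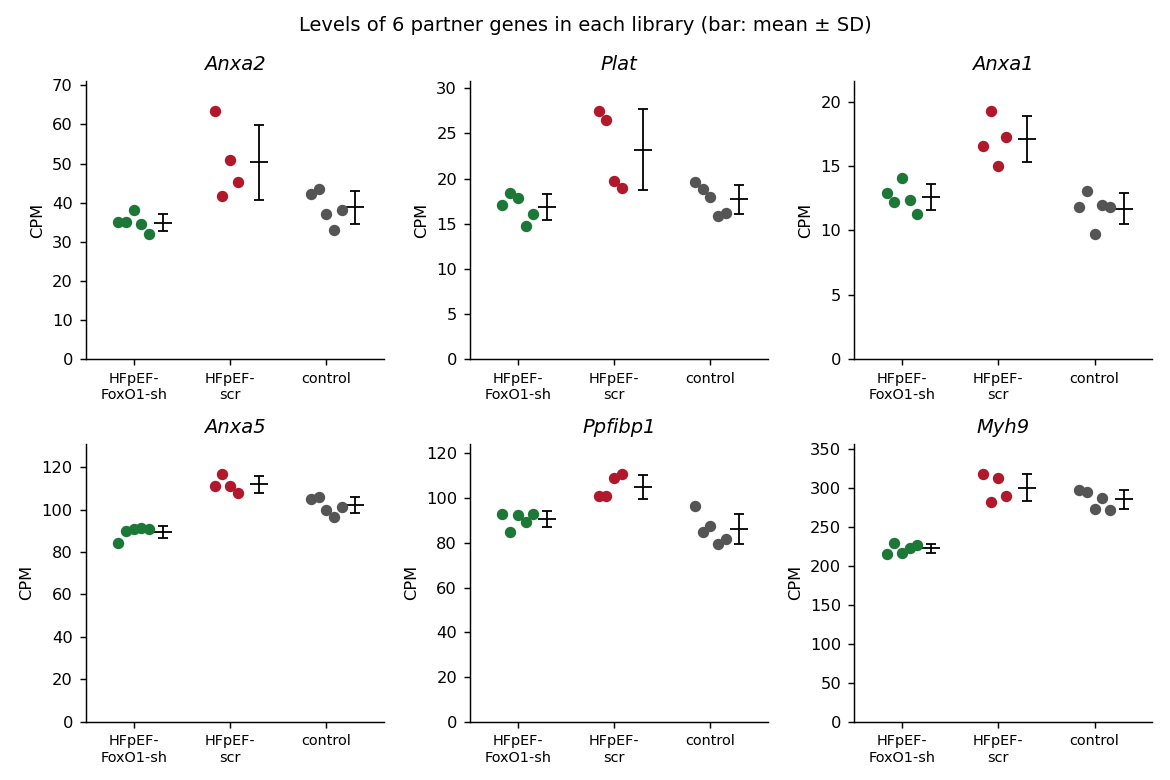
Levels in CPM of 6 genes whose products bind S100 proteins or act beside them, 1 point per library, in HFpEF-FoxO1-sh (n = 5), HFpEF-scr (n = 4) and control (n = 5), with the mean and SD beside the points. The HFpEF-scr points of Anxa1 lie between 15 and 19.3 CPM, above all others, and the HFpEF-FoxO1-sh points of Myh9 and Anxa5 lie below both other groups.

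Of the partners of S100a4, S100a6, S100a11 and S100a13, 10 of 12 were tested. The heavy chain of non-muscle myosin, Myh9, which S100a4 binds, had 215, 229, 216, 223 and 227 CPM in the libraries 1 to 5 labelled HFpEF-FoxO1-sh, 318, 282, 312 and 289 CPM in HFpEF-scr 1 to 4, and 297, 294, 273, 287 and 271 CPM in control 1 to 5. The libraries labelled HFpEF-FoxO1-sh lay below all others. Against HFpEF-scr alone, 4.23% of all genes tested were lower without overlap. Myh9 gave a log2 fold change of -0.44 ± 0.04 over HFpEF-scr (adjusted p = 8.89e-05) and -0.36 ± 0.04 over control (adjusted p = 4.57e-05). Its relative Myh10 fell in the same comparisons by 0.28 ± 0.05 (adjusted p = 0.00973) and 0.23 ± 0.05 (adjusted p = 0.00515). Ppfibp1, a liprin that S100a4 binds, was higher in HFpEF-scr over control (0.29 ± 0.06, adjusted p = 0.00647) and lower in HFpEF-FoxO1-sh over HFpEF-scr (-0.22 ± 0.06, adjusted p = 0.0433), a call that was lost in each of 9 fits without 1 library. Trp53, which S100a4 also binds, was lower in HFpEF-FoxO1-sh over control (-0.48 ± 0.09, adjusted p = 0.00218) and in HFpEF-scr over control (-0.37 ± 0.09, adjusted p = 0.0269), and the call in HFpEF-scr was lost in 4 of 9 fits without 1 library. Fgf1, a growth factor that S100a13 helps to export and named after its values were seen, was higher in HFpEF-FoxO1-sh over control (0.26 ± 0.07, adjusted p = 0.0263). In all, 3 of the 10 were lower and none higher in HFpEF-FoxO1-sh over HFpEF-scr, where 2.26% of all genes were called lower, and the median was -0.07. In HFpEF-FoxO1-sh over control 3 were lower and 1 was higher, where 13.0% of all genes were called in either direction.

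Of 7 tested muscle targets of S100a1, 1 passed the test in any comparison. This was Atp5a1, a subunit of the mitochondrial ATP synthase, which was higher in the libraries labelled HFpEF-FoxO1-sh over HFpEF-scr (0.14 ± 0.04, adjusted p = 0.0462) and over control (0.11 ± 0.03, adjusted p = 0.0407), and these calls were lost in 8 of 9 and 7 of 10 fits without 1 library. The other 6 were called in no comparison. Over all genes, 3.58% were called in HFpEF-FoxO1-sh over HFpEF-scr, 7.37% in HFpEF-scr over control and 13.0% in HFpEF-FoxO1-sh over control. Atp2a2, the calcium pump of the sarcoplasmic reticulum, gave 0.07 ± 0.04 over HFpEF-scr for HFpEF-FoxO1-sh (adjusted p = 0.295) and -0.06 ± 0.04 for HFpEF-scr over control (adjusted p = 0.336). Among 15 tested EF-hand calcium sensors outside the family, Capn2, a calpain, was higher in HFpEF-scr over control (0.20 ± 0.05, adjusted p = 0.0157).

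Of 8 further S100 genes in the table, 2 were tested and none was called in the 3 comparisons. S100a16, which lies between S100a13 and S100a4, averaged 24.1 ± 0.814 CPM in the libraries labelled HFpEF-FoxO1-sh, 25.5 ± 2.41 CPM in HFpEF-scr and 25.1 ± 1.83 CPM in control (SD). Its log2 fold change was -0.08 ± 0.07 over HFpEF-scr for HFpEF-FoxO1-sh (adjusted p = 0.554) and 0.02 ± 0.07 for HFpEF-scr over control (adjusted p = 0.891). S100b, the member of glial cells, gave 0.10 ± 0.35 and 0.05 ± 0.35 in these comparisons (adjusted p = 0.917 and 0.953).

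Marker lists of other cells also differed between the groups in which S100a10, S100a6 and S100a11 differed. Of 15 fibroblast markers, none had a log2 fold change above 0 in the libraries labelled HFpEF-FoxO1-sh over HFpEF-scr and 14 had one in HFpEF-scr over control. The list's medians were -0.28 and 0.17, against 0 over all genes tested in both. Col1a1, Col1a2 and Col3a1 were called lower in HFpEF-FoxO1-sh over HFpEF-scr and also over control. In HFpEF-scr over control, Pdgfra and Lum were called higher. The summed level of the 15 markers was between 1970 and 2490 CPM in HFpEF-FoxO1-sh, between 2250 and 2790 CPM in HFpEF-scr and between 2080 and 2460 CPM in control, with no marker at 0. Of 21 tested immediate early genes, which include Fos and Jun genes, 1 was above 0 in HFpEF-FoxO1-sh over HFpEF-scr and 21 were in HFpEF-scr over control. Their summed level was 586 to 2360 CPM in HFpEF-FoxO1-sh, 1200 to 5140 CPM in HFpEF-scr and 502 to 3460 CPM in control. Fos, Fosb, Jund and Nr4a3 were called lower in HFpEF-FoxO1-sh over HFpEF-scr. In HFpEF-scr over control, Fosb, Jund, Nr4a3, Ier3 and Klf4 were called higher, and Ier3 also in HFpEF-FoxO1-sh over control. Of 12 endothelial markers, Pecam1 was called lower in HFpEF-FoxO1-sh over HFpEF-scr, and Pecam1, Flt1 and Fabp4 were called higher in HFpEF-scr over control, with medians of -0.14 and 0.18. Of 13 pericyte and smooth muscle markers, Mcam was called lower in HFpEF-FoxO1-sh over HFpEF-scr, and Acta2, Tagln and Rgs5 were called higher in HFpEF-scr over control, with medians of -0.15 and 0.15. The endothelial sum was 2060 to 2240 CPM in HFpEF-FoxO1-sh, 2010 to 2790 CPM in HFpEF-scr and 1980 to 2110 CPM in control. The pericyte and smooth muscle sum was 3620 to 3820 CPM in HFpEF-FoxO1-sh, 3690 to 4040 CPM in HFpEF-scr and 3800 to 3880 CPM in control. Macrophage and monocyte markers, which bear on Tlr4 and Ncf1, summed to 199 to 252 CPM in HFpEF-FoxO1-sh, 261 to 336 CPM in HFpEF-scr and 279 to 370 CPM in control, and 3 of 17 were called lower in HFpEF-FoxO1-sh over HFpEF-scr. In HFpEF-FoxO1-sh over control 10 of the 17 were called lower and 0 higher, where 13.0% of all genes were called in either direction. The median log2 fold changes were -0.33 over HFpEF-scr and -0.54 over control. Heart muscle markers, beside which S100a1 stands, summed to 118000 to 130000 CPM in HFpEF-FoxO1-sh, 115000 to 124000 CPM in HFpEF-scr and 128000 to 136000 CPM in control, and 5 of 13 were called lower in HFpEF-scr over control. Beside these counts, 7.37% of all genes were called in HFpEF-scr over control, and 3.66% were called higher. In HFpEF-FoxO1-sh over HFpEF-scr 3.58% of all genes were called, and 2.26% were called lower. In whole ventricle more cells of a type and more RNA per cell cannot be told apart, and the part of these cells in the S100 values was not tested.

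Some of the tested members varied together among libraries of the same group, and others did not. Taken as deviations from the group means over the 14 libraries, log2 CPM of S100a11 and S100a13 had a correlation of 0.82, S100a6 and S100a11 one of 0.72, and S100a6 and S100a13 one of 0.71. S100a10 had 0.41 with S100a6, 0.43 with S100a11, 0.44 with S100a13 and 0.37 with S100a4, but -0.19 with S100a1. S100a4 had 0.22 with S100a6, 0.06 with S100a1, -0.09 with S100a11 and -0.18 with S100a13. S100a1 had 0.4 with S100a6, 0.34 with S100a11 and 0.37 with S100a13. The libraries share their scaling and these values are a description only. Out of 11924 tested genes that averaged 2 CPM or more, those most like S100a10 over the 14 libraries were Sorbs3 (Pearson correlation 0.91), Trim47 (0.90), Dusp3 (0.90), Pak2 (0.89) and Ube2j1 (0.89). By rank correlation 3 of these 5 stayed among the 5 most like it, and by deviations from group means 0 of 5. Correlations over all 14 libraries, unlike those of deviations, include the group differences by which S100a10 was chosen. Nipal3 (0.90) was most like S100a8, a likeness that rests on few counts.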

How the data were processed

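The authors deposited expected counts per gene, a table in which between 15.1% and 16.4% of values per library were not whole. The submitters' processing notes name Bowtie2 2.1.0, RSEM 1.2.15 and mm10 without their roles; the annotation they counted is not given in the sources used here. Libraries were made from poly(A) RNA, per the labels' protocols. The table holds 24054 genes.

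After rounding, expected counts went into a quasi-likelihood fit over all 14 libraries (edgeR 4.0.16, R 4.3.3), with filterByExpr (minimum count 10), TMM scaling and 1 coefficient per group. Adjusted p are Benjamini-Hochberg values over 13588 genes, with calls made under 0.05. S100a10 was in the fit, and its p is not printed. Each SE is the size of the log2 fold change over the square root of F. S100a8 and S100a9 were compared by exact permutation, also in R. Gene positions, motif matches and Dixon's criterion were worked out in Python 3.11.15. Log2 CPM for correlations used a prior count of 2.

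Members and gene lists were chosen with earlier results of these data known. All 8 members are named, with up to 4 genes of smallest p per partner list and the 5 genes most like S100a10, and single markers beside a member. Some genes that this rule took are not reported here. Cell markers are given as counts and sums. The replicate number entered no block in the fit: the labels do not say what they mark, and same-numbered libraries did not deviate together. Alternatives were DESeq2 1.42.0, limma voom (3.58.1), other filters and scaling, the block, the compared groups alone and leaving out each library. After the data were seen, leaving out HFpEF-scr 1 and 2 together and an immediate early score as covariate were added. The fit was tested on simulated counts. Exon positions came from GENCODE vM21.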

Additional observations from a re-analysis of the deposited data

Results flagged for a closer look

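In 3 of 24 groups of values of the 8 genes, 1 library lay far from the others of its group by Dixon's criterion, which chance meets in about 1 in 20 groups. S100a8 was 1.45 CPM in HFpEF-scr 2, and the next HFpEF-scr library had 0.281 CPM. S100a9 was 2.35 CPM in the same library, and the next had 0.422 CPM. S100a8 was 0.261 CPM in control 3, which is 4 counts, and the next control had 0.0937 CPM.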

How the results depend on the processing

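The fold changes of S100a11 and S100a6 in HFpEF-FoxO1-sh over HFpEF-scr and in HFpEF-scr over control kept their direction in all alternatives run. Their calls lay close to the threshold. Those of S100a10 kept their direction too, but these directions chose the gene, so this is a description only. Members called, S100a10 aside, were 1 in HFpEF-FoxO1-sh over HFpEF-scr, 1 in HFpEF-scr over control and 0 in HFpEF-FoxO1-sh over control. For HFpEF-FoxO1-sh over HFpEF-scr they were 2 (S100a11 and S100a6) with at least 10 counts in every library and in DESeq2, and 0 without HFpEF-scr 1 and 2. For HFpEF-scr over control they were 0 in the fit of these groups alone. Without single libraries they ranged from 0 to 2 in the first of these comparisons and from 0 to 1 in the second, and were 0 in the third.

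With the replicate number as a block, which does not pair these libraries (correlations of same-numbered deviations between -0.19 and 0.11), 0 members were called in each of the 3 comparisons, with adjusted p of 0.0547 for S100a11 in HFpEF-FoxO1-sh over HFpEF-scr and 0.0612 for S100a6 in HFpEF-scr over control. Genes called over the whole table under the block were 291, 770 and 1488 in HFpEF-FoxO1-sh over HFpEF-scr, HFpEF-scr over control and HFpEF-FoxO1-sh over control, against 486, 1001 and 1760 without it.

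Genes called in HFpEF-FoxO1-sh over HFpEF-scr were also 876 in DESeq2, 54 without HFpEF-scr 1 and 2, and 231 with the immediate early score as a covariate, and between 162 and 668 without single libraries. In HFpEF-scr over control they were 504 in the fit of these groups alone, 560 without HFpEF-scr 1 and 2, 395 with the score, and between 537 and 1106 without single libraries. In HFpEF-FoxO1-sh over control they were between 1228 and 1683 without single libraries. The causes were not tested. Without single libraries, signs turned for uncalled log2 fold changes near 0. In HFpEF-FoxO1-sh over control S100a6 ranged from -0.01 to 0.05, S100a10 from -0.02 to 0.07 and S100a13 from -0.03 to 0.08, and in HFpEF-scr over control S100a13 ranged from -0.11 to 0.02. At these depths S100a8 and S100a9 rest on few counts, and no difference in them between groups was detectable.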
